A study of Mus musculus with 3 samples.

Results

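Nkx2-5 and Nkx2-6 encode related homeodomain transcription factors of the NK2 class, and the genomic neighbourhoods of both genes were examined for binding of NKX2-5 itself. The members are the ChIP-seq peaks whose midpoint lay within 100 kb of the annotated body of either gene. There were 11 such peaks among 9859 in all, 3 of the 4418 peaks of library S1 and 8 of the 5441 peaks of library S4. All 11 lay at Nkx2-5, and Nkx2-6 had none in either library. The libraries are duplicate NKX2-5 immunoprecipitations from hearts of wild-type Parkes mouse embryos at E11.5, and the Input library of the series was not analysed here. Whole hearts hold myocardium together with other cell types, and the labels do not say whether the duplicates came from separate litters or how many hearts went into each. There was 1 condition, so no groups could be compared and no test was made.

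NKX2-5 is a homeodomain factor needed for the looping and growth of the heart tube. It acts with GATA, T-box and MEF2 factors, and many genes of this network are known to be controlled by the factors they encode. Nkx2-5 itself is known to be driven by several separate enhancers, including upstream cardiac enhancers that depend on GATA factors. Nkx2-6 is expressed mainly in the pharyngeal region and in parts of the early heart, and the functions of both genes overlap in the pharynx. The homeodomain of NKX2-5 recognises sites with the core AAGTG, and the core TGACA is typical of MEIS1.

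Nkx2-5 (ENSMUSG00000015579.4) lies on the minus strand at chr17:26975609-26978510 in mm9, and its start site is at 26978510. The RefSeq promoter of the gene, matched by sequence to mm9, gave the same start site. Nkx2-6 (ENSMUSG00000044186.8) lies on the plus strand at chr14:69789633-69793596, with its start site at 69789633. Both windows of 100 kb on each side contained no unknown bases in the assembly.

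Selected sequences at Nkx2-5 are shown first, read on the strand of the gene. The distances in kb in their labels are those of the midpoint of the peak, which need not lie in the stretch printed. Capitals mark exact matches, on either strand, to the motifs searched. These were the NKX2-5 core AAGTG with its longer form TNAAGTG, the MEIS1 core TGACA and their overlap AAGTGACA. Also searched were GTGNTGACA, which contains TGACA but not AAGTG, the core AGATAA of GATA factors and the core AGGTGT of T-box factors. A match on the other strand appears as its reverse complement, such as TGTCA for the MEIS1 core. The first is the promoter covered by a peak of S4, at chr17:26978511-26978760. The next is the centre of the S1 peak with the highest score of the 3, which holds GTGNTGACA but no AAGTG, at chr17:26970613-26970703. They are followed by the stretch with the most matches in each of 5 further peaks, at chr17:27001477-27001574 and chr17:27029739-27029808 in S1, and at chr17:26980402-26980458, chr17:26987759-26987917 and chr17:27023435-27023576 in S4.
Promoter, 1 to 250 bp upstream: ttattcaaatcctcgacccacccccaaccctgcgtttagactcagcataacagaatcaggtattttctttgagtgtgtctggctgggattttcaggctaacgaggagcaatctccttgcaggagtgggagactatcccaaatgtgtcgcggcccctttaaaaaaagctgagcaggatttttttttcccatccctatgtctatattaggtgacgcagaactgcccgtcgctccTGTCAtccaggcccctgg
S1, 7.85 kb downstream: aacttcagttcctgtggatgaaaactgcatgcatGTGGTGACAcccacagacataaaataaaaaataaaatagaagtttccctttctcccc
S1, 23.47 kb upstream: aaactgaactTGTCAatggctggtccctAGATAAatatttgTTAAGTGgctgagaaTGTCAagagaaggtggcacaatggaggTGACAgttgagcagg
S1, 51.23 kb upstream: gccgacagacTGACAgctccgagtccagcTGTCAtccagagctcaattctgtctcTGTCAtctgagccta
S4, 1.75 kb upstream: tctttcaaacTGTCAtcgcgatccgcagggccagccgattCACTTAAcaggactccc
S4, 9.04 kb upstream: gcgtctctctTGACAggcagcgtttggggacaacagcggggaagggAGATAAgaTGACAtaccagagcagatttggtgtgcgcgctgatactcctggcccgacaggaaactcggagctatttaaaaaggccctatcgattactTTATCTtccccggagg
S4, 44.67 kb upstream: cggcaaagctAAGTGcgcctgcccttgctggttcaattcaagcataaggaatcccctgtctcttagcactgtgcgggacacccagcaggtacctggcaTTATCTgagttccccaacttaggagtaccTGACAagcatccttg

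Each library had peaks around Nkx2-5, but no peak of one library overlapped a peak of the other. S1 had 3 peaks and S4 had 8, a mean of 5.5 ± 3.54 (SD, n = 2 libraries). Over all protein-coding genes, 38.4% had at least 1 S1 peak within 100 kb and 44.6% had at least 1 S4 peak. Of the 22367 protein-coding genes, Nkx2-5 included, 6.09% had 3 or more S1 peaks and 0.295% had 8 or more S4 peaks. The score of a peak is read, from its values, as −log10 of the peak caller's p-value multiplied by 10. It moves with the depth of the library, which is unknown here, so scores are read below within each list.

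The S1 peaks lay on both sides of the gene. The first, at chr17:26970131-26971185, lay with its midpoint in intergenic sequence 7.85 kb downstream of the start site, scored 283.6 and was 1055 bp wide. The second, at chr17:27001422-27002543, lay 23.47 kb upstream, scored 199.6 and was 1122 bp wide. The third, at chr17:27029418-27030064, lay 51.23 kb upstream, scored 186.5 and was 647 bp wide. Both upstream peaks fell in introns of noncoding genes, Gm20468 for both and also Gm17382 for the nearer one. The first ranked 1393 by score among 4418 peaks, above the list's median of 211.8, and the other 2 peaks were below it. The widths of 1055 bp and 1122 bp were larger than or equal to those of 95.9% and 97.0% of S1 peaks.

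Of the 8 S4 peaks, 6 lay upstream of the start site and 2 had their midpoint downstream of it. The peak at chr17:26978040-26978796 spanned the start of Nkx2-5, with its midpoint 0.09 kb inside the gene, and scored 148.4 over 757 bp. It contained the whole promoter printed above. A neighbour at chr17:26980011-26980514 lay 1.75 kb upstream with a score of 161.5 and, at 504 bp, was the narrowest of the 8.

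Farther out, chr17:26987106-26987996 lay 9.04 kb upstream and scored 140.8 over 891 bp. This is close to the lowest score in the S4 list, 140.02, and only 1.05% of the list scored no higher. The next, chr17:27005510-27006164, lay 27.33 kb upstream in introns of Gm17382 and Gm20468, and scored 149.3 over 655 bp. A pair of peaks followed at 43.57 kb (chr17:27021701-27022458, score 142.9, 758 bp) and 44.67 kb upstream (chr17:27022759-27023592, score 238.4, 834 bp). The second of this pair covered the start of the long intergenic noncoding RNA Gm17382 and was the highest-scoring S4 peak at the locus.

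The 2 outermost S4 peaks sat on the starts of other protein-coding genes. One, at chr17:26917792-26918481, lay 60.37 kb downstream of the start of Nkx2-5 and covered the start of Bnip1, which encodes a SNARE protein of the endoplasmic reticulum (score 176.4, 690 bp). The other, at chr17:27069745-27070327, lay 91.53 kb upstream and covered the start of Phf1, which encodes a partner of Polycomb repressive complexes (score 162.8, 583 bp). The start of Kifc5b, a kinesin gene, lay between this last peak and Nkx2-5, and it was the nearest protein-coding start to 3 peaks, 1 of S1 and 2 of S4. In total 4 of the 8 S4 peaks had their midpoint within 1 kb of a transcript start, against 22.7% of all S4 peaks, and none of the 3 S1 peaks did, against 21.3% of all S1 peaks.

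**Figure D1:**
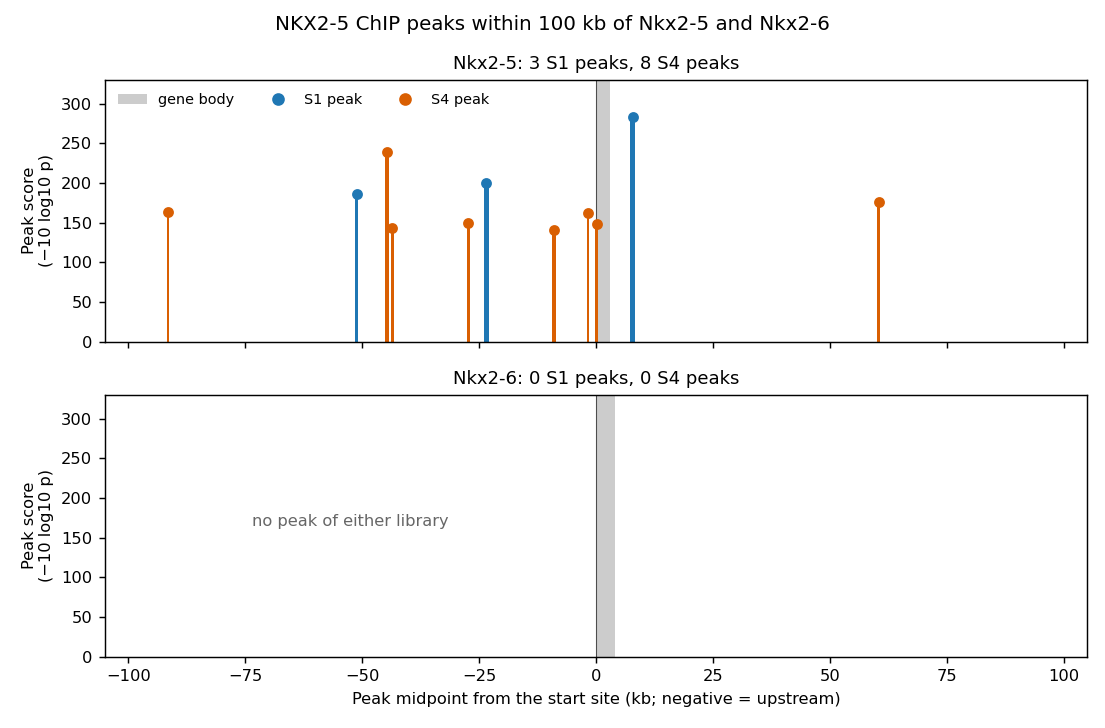
Peaks within 100 kb of Nkx2-5 (upper panel) and Nkx2-6 (lower panel) by the distance of their midpoint from the start site in kb, negative upstream, and their score; each bar is 1 peak drawn at its width, topped by a point, with S1 in blue, S4 in orange and the gene body in grey, and scores are not on 1 scale between libraries. None of the 3 S1 peaks at Nkx2-5 overlaps any of the 8 S4 peaks, and Nkx2-6 has no peak.

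The scores at Nkx2-5 were low within the S4 list. Of the 8 S4 peaks, 6 scored within the lowest 25% of their list and 7 below its median, with a median score of 155.4 against 223.2 for the whole list. The S1 peaks ranged from 186.5 to 283.6, with a median of 199.6 against 211.8. No peak of either library at the locus scored within the highest 25% of its list. Of each library, 1 peak scored above the median of its own list, and these 2 peaks lay on opposite sides of the gene.

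**Figure D2:**
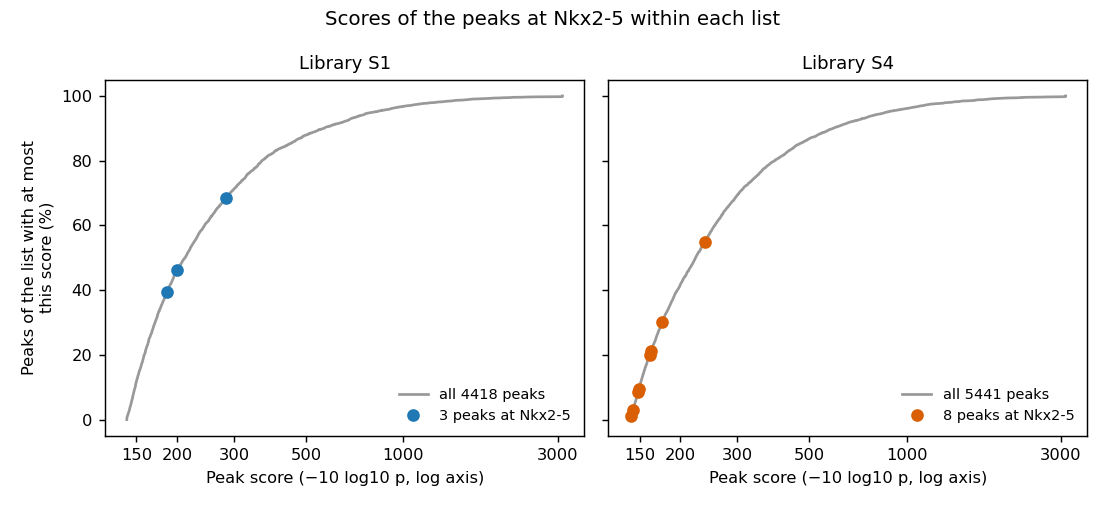
Cumulative share of peaks (vertical axis, percent) by score (horizontal axis, log scale) in S1 (left) and S4 (right), with the grey line for the whole list and points for the peaks at Nkx2-5. The points of S4 gather at the foot of the curve, with 6 of 8 in the lowest 25%, and those of S1 lie between 39.5% and 68.5%.

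The duplicates did not place a common peak at Nkx2-5. None of the 3 S1 peaks overlapped an S4 peak, where 58.9% of all S1 peaks did, and none of the 8 S4 peaks overlapped an S1 peak, where 47.0% of all S4 peaks did. To take scores into account, the same share was taken over the other peaks whose scores lay within the range seen at the locus. This is a range and not a match of scores, since 6 of the 8 S4 peaks scored in the lowest 25% of their list. The share was 58.2% of 1279 S1 peaks (95% Clopper-Pearson interval, 55.5 to 61.0) and 26.9% of 2919 S4 peaks (25.3 to 28.6). With so few peaks, 0 of 3 allows a share of up to 70.8% and 0 of 8 a share of up to 36.9% by the same interval, which covers counting error only. Both limits lie above the shares within the score range. Peaks of 1 locus are not independent of each other, so these limits need not hold. They are not read as a test against any of these shares.

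The gaps between the libraries are given as a description, since the peaks were chosen for lying near 1 gene. The smallest gap, 2.97 kb, separated the S1 peak 23.47 kb upstream from the S4 peak 27.33 kb upstream. The S1 peak 51.23 kb upstream was 5.83 kb from the S4 peak at the start of Gm17382, and the S1 peak downstream of the gene was 6.85 kb from the S4 peak at the start of Nkx2-5. All 3 S1 peaks and 5 of the 8 S4 peaks thus had a peak of the other library within 10 kb. Over the whole lists, 16.9% of the S1 peaks and 14.7% of the S4 peaks without an overlap did. These shares were not matched for the local density of peaks, and the members were chosen within 1 window, so no comparison is drawn. With peaks up to 10 kb apart joined, which was tried only once the data had been seen, the locus held 3 shared regions. The share of all genes with such a region was not computed.

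At least 1 shared region lay within 100 kb of 24.3% of protein-coding genes, and neither Nkx2-5 nor Nkx2-6 was among them. As many peaks of both libraries together as at Nkx2-5, 11 or more, were found at 157 protein-coding genes (0.702%). Nkx2-5 was the only one of these 157 without a shared region. The 49 genes with exactly 11 peaks had a median of 4 shared regions. With 9 or more peaks, 5 of 310 genes had none, namely Nkx2-5, its neighbours Kifc5b, Phf1 and Cuta, whose windows hold 9 or 10 of the same 11 peaks, and Tbx5. This comparison was chosen after the values were seen, and neighbouring genes count the same peaks, so genes are not independent.

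**Figure D3:**
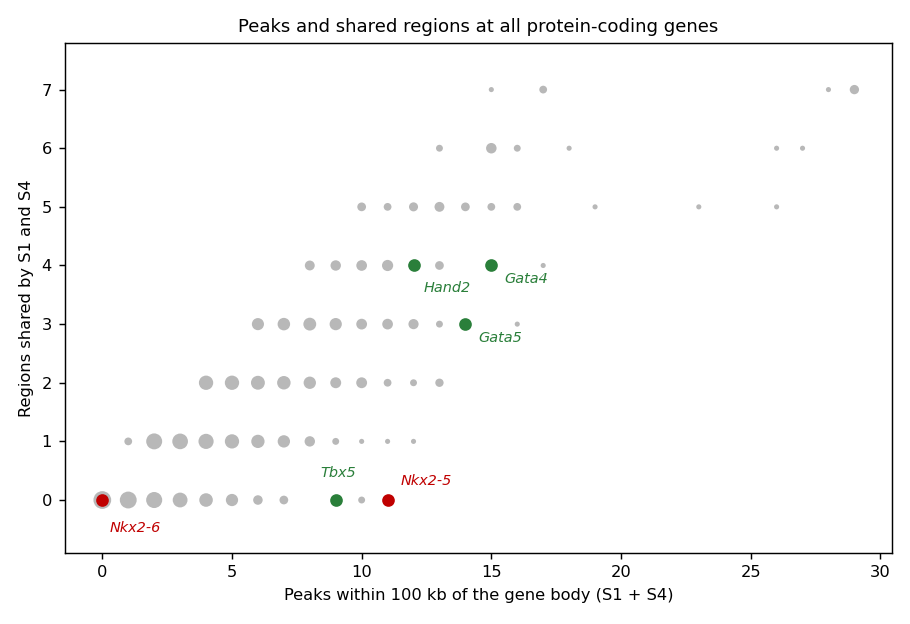
Number of S1 and S4 peaks within 100 kb of each protein-coding gene (horizontal axis) against the number of regions shared by both libraries there (vertical axis); each grey point is a combination of both numbers, larger where more of the 22367 genes have it. Nkx2-5 has 11 peaks and no shared region, and it lies farther right on the zero line than any other gene.

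The shared regions nearest to Nkx2-5 lay beyond the limit. On the downstream side, a shared stretch at chr17:26836646-26837141 lay 142 kb from the start site and scored 182.1 in S1 against 157.2 in S4. A second, at chr17:26782009-26782717 inside Ergic1, lay 196 kb away with scores of 475.9 and 204.6. On the upstream side the nearest, at chr17:27733279-27733831 inside Nudt3, lay 755 kb away with scores of 258.6 and 546.1. The nearest protein-coding starts to these stretches were those of A930001N09Rik, Atp6v0e and Nudt3.

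The motif search was planned for shared regions, of which there were none, so all 11 peaks were searched instead, a choice made after seeing the data. Within 100 bp of the midpoint in both directions, the NKX2-5 core AAGTG was absent from all 11 peaks. In windows of the same size it was present in 60.1% of all S1 peaks and 57.8% of all S4 peaks. The MEIS1 core TGACA was present in 5 of the 11 windows, 2 of S1 and 3 of S4, against 57.9% and 56.1% of the lists. None of the 11 windows held TNAAGTG, which 28.9% of S1 and 26.6% of S4 windows hold. None held the overlap AAGTGACA (2.38% and 2.08%), the GATA core AGATAA (16.3% and 16.5%) or the T-box core AGGTGT (13.4% and 12.2%). The files give no summits, so these windows need not hold the point of highest signal.

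Over the whole peak, AAGTG was present in 8 of 11 peaks, all 3 of S1 and 5 of 8 of S4, against 88.7% of S1 and 91.9% of S4 peaks. TGACA was present in 10 of 11, against 84.7% and 88.5%. The longer form TNAAGTG occurred in 3 peaks (51.1% and 54.7% of the lists) and the GATA core AGATAA in 4 (36.5% and 42.2%). The T-box core AGGTGT occurred in 1 peak (32.9% and 38.6%) and the overlap AAGTGACA in none (5.07% and 5.95%). The S4 peak at the start of Phf1 held no match to any of the motifs. The shares over the whole peak were not matched for width. The median width was 1055 bp for the 3 S1 peaks against 625 bp for the S1 list. It was 723.5 bp for the 8 S4 peaks against 783 bp for the S4 list.

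The S1 peak downstream of the gene held GTGGTGACA centred 7 bp from its midpoint, as printed above. It was the only match to GTGNTGACA among the 11 peaks, and 7.38% of all S1 peaks hold one within 100 bp of the midpoint. The same peak held 4 matches to AAGTG, the nearest 112 bp from the midpoint. The S1 peak 51.23 kb upstream held 7 matches to TGACA, of which 3 lay within 100 bp of its midpoint. The S1 peak 23.47 kb upstream had its densest matches toward one edge, where 3 copies of TGACA lay on both sides of a TTAAGTG and an AGATAA.

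At the start site, the printed 250 bp of promoter held a single match, TGACA centred 16 bp upstream. TGACA is present in 37.1% of the same stretch of all protein-coding genes, and AAGTG, absent here, in 40.0%. Within the S4 peak over the start, the only AAGTG lay 449 bp downstream of the start site. In the S4 peak 9.04 kb upstream, 2 matches to AGATAA lay 9262 bp and 9358 bp upstream, and TGACA lay 9351 bp upstream, next to the second. The S4 peak 1.75 kb upstream held TTAAGTG 1905 bp upstream, beside a TGACA at 1936 bp. The peaks at the starts of Nkx2-5 and Phf1 were rich in G and C, at 62.0% and 67.1%, against a median of 48.2% for S4 peaks. The median over the 250 bp upstream of all protein-coding starts was 54.0%. Every S4 peak at the locus lay above 48.2%, the lowest at 48.8%, and the intergenic peak 9.04 kb upstream held 58.0%.

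At Nkx2-6, no peak of either library lay within 100 kb, and none lay within 200 kb. The same holds within 100 kb for 47.1% of protein-coding genes. The gene lay in a stretch of 1094 kb without a peak of either library, chr14:69118383-70212467. The stretch held 14 protein-coding genes, Nkx2-6 included, among them Slc25a37, which encodes the mitochondrial iron importer mitoferrin. The nearest midpoint was 419 kb from the gene body. The median over all protein-coding genes was 88.0 kb, and 16.7% of them were at least as far from a peak as Nkx2-6.

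The peaks at both ends of this stretch were shared between the libraries. Upstream of Nkx2-6, a shared stretch at chr14:69117690-69118159 inside Adam7 lay 672 kb from the start site and scored 181.3 in S1 against 273.2 in S4. Downstream, a shared stretch at chr14:70212598-70213219, 0.6 kb from the start of Rhobtb2, lay 423 kb away with scores of 423.6 and 280.5. The lists hold no peak scoring under 140.01 in S1 or 140.02 in S4, so binding at Nkx2-6 was not detected above these levels, which does not show that it was absent.

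Other NK homeobox genes had few peaks. Of 12 such genes, 10 had no peak of either library within 100 kb. Nkx6-3 had 1 shared region, scored 397.0 in S1 against 554.9 in S4 and lost with a limit of 50 kb, and Nkx2-4 had 1 peak, in S4 only, with a score of 156.9. The share with a shared region, 1 of 12 (8.33%), is a description beside the 24.3% of all protein-coding genes. The median gene of this list had 0 peaks, and the median over all protein-coding genes was 1.

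Of 21 genes for other cardiac transcription factors, 14 (66.7%) had a shared region within 100 kb, against 24.3% of all protein-coding genes. An S1 peak lay there at 17 and an S4 peak at 18, against 38.4% and 44.6% of all protein-coding genes. The median of the list was 4 peaks and 1 shared region, against 1 and 0 over all protein-coding genes. The list was chosen with earlier results of these data known, so these values are a description. Named by the scores of their shared regions, summed over both libraries although these are not on 1 scale, were Gata5, a zinc finger factor, with 3 shared regions, Tbx3, a T-box repressor of the conduction system, with 2, and Irx4, a ventricular homeobox factor, with 1. The order differed between the libraries. The S1 peaks within 100 kb summed to 2520 at Tbx3, 1632 at Gata5 and 1422 at Irx4, and the S4 peaks to 5153 at Gata5, 2404 at Tbx3 and 1778 at Irx4. These sums take in all peaks and not only the shared regions. By them the 3 genes were not the highest of the list in S4, where Gata4 summed to 2464, above Tbx3. The next genes were chosen after their values were seen. Gata4, with 5 S1 and 10 S4 peaks, had 4 shared regions. Tbx5, a T-box factor and partner of NKX2-5, had 5 S1 and 4 S4 peaks and no shared region, and Mef2a had 1 peak of each library that did not overlap. Of the 6732 protein-coding genes with peaks of both libraries, 19.4% had no shared region.

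**Figure D4:**
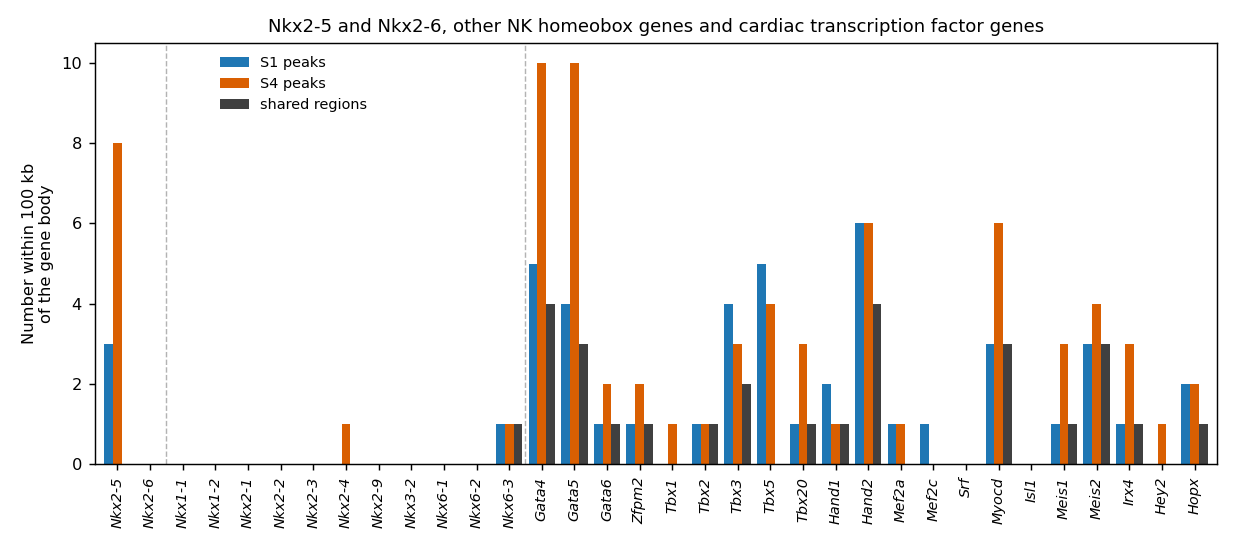
Number of S1 peaks (blue), S4 peaks (orange) and shared regions (dark grey) within 100 kb of Nkx2-5 and Nkx2-6 (left of the first dashed line), other NK homeobox genes (middle) and 21 cardiac transcription factor genes (right). Nkx2-5 and Tbx5 have several peaks of both libraries but no dark bar, and Nkx2-4 and Nkx6-3 are the only other NK homeobox genes drawn here that have a bar.

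By the sum of scores within 100 kb, 669.7 in S1 and 1321 in S4, the genes outside 1 Mb most like Nkx2-5 were Rhbdd1, Rgl1 and D430042O09Rik. Their distances in log2(1 + summed score) over the 2 libraries were 0.020, 0.047 and 0.050. Rhbdd1 reached its sums with 1 S1 and 3 S4 peaks, Rgl1 with 2 and 7, and D430042O09Rik with 3 and 5. These had 1, 2 and 3 shared regions, in that order, against 0 at Nkx2-5. No such likeness was computed for Nkx2-6, which had no peak.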

How the data were processed

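NKX2-5 ChIP-seq of E11.5 hearts was analysed from 2 peak lists, S1 and S4. Per the methods of the study, the authors aligned reads to mm9 with BOWTIE and called peaks with MACS, and the submitters' processing notes also name CASAVA 1.4. Settings, and whether Input served as control, are not given in the sources used here. The deposited score is read, from its values, as 10 times the negative log10 of the caller's p-value, per library and not pooled. Coordinates as deposited count the start from 0, and are printed here counted from 1. Depth was not available from the lists.

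Peaks were assigned to GENCODE M1 (mm9) gene bodies by their midpoint. Peaks overlapping by at least 1 bp were shared, and overlapping pairs with a common peak were merged. Motifs were exact matches on both strands. AAGTG is part of TNAAGTG and AAGTGACA, and TGACA is part of AAGTGACA and GTGNTGACA. Sequences came from the NCBIM37 assembly, and the Nkx2-5 start was also matched from RefSeq (GRCm38.p6). Named genes by rule are both members, the genes starting nearest to a member peak or between it and the member, the 3 genes of each list with the highest summed score of shared regions, and the 3 genes closest in summed score. Gata4, Tbx5, Mef2a, Nkx2-4, Cuta, Slc25a37 and the genes at the nearest shared regions fall outside it and were named after their values were seen. A gene of the NK homeobox list is counted but not reported here by name or drawn. Members, lists and motifs were chosen with earlier results of these data known. Window counts and motif matches were tested on simulated data and all planted values came back. Python 3.11.15, numpy 2.4.6, scipy 1.17.1 and matplotlib 3.10.9 were used.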

Additional observations from a re-analysis of the deposited data

How the results depend on the processing

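Of 62 alternatives over 11 results, 43 gave the same value, 6 moved a count by less than 1.5 times and 13 moved a value further, and none had a test. Part of the 43 could not have differed. The share of genes with at least as many shared regions as a member without any is 100% by definition. The planned motif settings had no shared region to search. For the share of genes, any move beyond its binomial interval counted. The 6 were a mean of 4.0 peaks at Nkx2-5 within 50 kb, of 8.0 within 200 kb and of 8.0 in S4 alone, and 12 to 13 cardiac factor genes in 3 settings. Nkx2-5 had no shared region in 7 of 8 planned settings, and 2 within 200 kb. Only this wider limit, counting peaks with any base within the limit, and allowing a gap of up to 500 bp could have added a region. The other planned settings were at least as strict as the main one and could only give none. Joining peaks up to 10 kb apart, added after seeing the data, gave 3. Nkx2-6 had no peak or shared region in any of its 16 settings, of which only those with 200 kb or any base within the limit could have added any. Dropping peaks that scored under 200, a limit that need not be equally strict in both lists, left a mean of 1.0 peaks at Nkx2-5, and each library alone gave from 3.0 to 8.0. Shared regions within the limit were found at 15.7% of protein-coding genes with that minimum score, at 15.7% within 50 kb, at 21.0% within 100 kb of the start site and at 22.4% with an overlap of 50% of both peaks. Within 50 kb, 0 NK homeobox genes had one. In place of shared regions, all 11 peaks gave 8 with AAGTG in the whole peak, and TGACA in 5, 2 and 10 with 100 bp, 25 bp and the whole peak. Lower counts follow from stricter limits by construction, and the cause of no other change was tested. Leaving out a library gives no value for shared regions. No paired analysis was possible because the series has 1 condition. The depth of the libraries is unknown, which limits the reading of low scores and of peaks seen in 1 library.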
